A study of Homo sapiens with 6 samples.

Results

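SMARCA1 and SMARCA5 are the paralogous ATPases of the ISWI family of chromatin remodellers, and their expression was followed with that of 6 genes whose proteins pair with them, BPTF, BAZ1A, BAZ1B, BAZ2A, RSF1 and CECR2. The set was made of all probes annotated to these 8 symbols on Illumina HumanHT-12 v4 BeadChips. There were 11 such probes for 6 of the 8 genes among 47315 probes in all, and no probe was annotated to BAZ1B or CECR2 in the table used here, so these genes were not analysed. Of the 11 probes, 10 had a detection p-value under 0.05 on at least 3 of the 6 arrays and were kept. The remaining probe was that of BAZ2A. SMARCA1 was chosen by its difference between the groups compared here and the other genes were added as its relatives, so the differences of these genes are given as a description. The number past the threshold of the fit across all probes is stated beside that for all probes, and nothing is read from it.

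All 6 arrays held total RNA of HEK293 cells, an established human embryonic kidney line, with stable integration of the bicistronic expression vector pBI-CMV2, which also carries GFP, and G418 selection through a cotransfected neomycin resistance vector. The circANRIL group (3 arrays) overexpressed a circular RNA made of exons of ANRIL, a long non-coding RNA of the 9p21 atherosclerosis locus. The vector control group (3 arrays) carried the vector alone. HEK293 cells also make this circular RNA from their own gene. At least 3 lines were made per construct, but the labels do not say that the arrays of a group were separate lines, so p-values measure only the spread between these arrays, and differences between lines cannot be told apart from those between constructs. The level of circANRIL itself was not measured on these arrays.

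ISWI ATPases use ATP to slide nucleosomes and to set their spacing. SMARCA1, also called SNF2L, works with the large subunit BPTF and the histone-binding proteins RBBP4 and RBBP7 in NURF, a complex that opens chromatin at genes, and with CECR2 in CERF. SMARCA5, also called SNF2H, is the ATPase of ACF and CHRAC with BAZ1A, of WICH with BAZ1B, of NoRC with BAZ2A and of RSF with RSF1. In mice SMARCA1 is known for its expression in the nervous system, whereas SMARCA5 is found in most dividing cells. Because both ATPases have been found with several of these partners, the levels of the paralogs were read beside those of the partner genes.

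The start sites of the paralogs are shown because the levels of the genes behind them parted in these arrays. Each sequence covers 300 bases, most of them before the annotated start (RefSeq, GRCh38.p14), and capitals mark CG dinucleotides. The SMARCA1 window is chrX:129523441-129523740 on the minus strand and that of SMARCA5 is chr4:143513452-143513751 on the plus strand.
SMARCA1: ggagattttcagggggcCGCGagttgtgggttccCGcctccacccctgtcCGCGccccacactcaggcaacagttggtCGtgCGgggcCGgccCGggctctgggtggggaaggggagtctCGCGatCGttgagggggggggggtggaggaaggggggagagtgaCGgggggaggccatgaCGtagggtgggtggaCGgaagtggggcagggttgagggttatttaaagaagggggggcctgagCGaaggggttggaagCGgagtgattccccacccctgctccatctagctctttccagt
SMARCA5: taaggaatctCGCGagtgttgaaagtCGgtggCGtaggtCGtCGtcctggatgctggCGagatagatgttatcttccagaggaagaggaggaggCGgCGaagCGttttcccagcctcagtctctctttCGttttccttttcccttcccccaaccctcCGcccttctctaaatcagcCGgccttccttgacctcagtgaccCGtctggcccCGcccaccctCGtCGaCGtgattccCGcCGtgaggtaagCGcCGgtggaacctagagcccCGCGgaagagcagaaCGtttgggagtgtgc
The SMARCA1 window held 17 CG dinucleotides, and 46.0% of 35116 promoter windows of the same length held at least as many. The SMARCA5 window held 25, a number reached by 32.0% of windows. Of 3 motifs searched on both strands, the CCAAT box occurred in 34.6% of all windows. The GC box, spelled GGGCGG and thus overlapping a CG, occurred in 45.0% of them. The TATA box, spelled TATAAA, occurred in 11.5%. The SMARCA1 window held none of the 3 in these exact spellings, and the SMARCA5 window held the GC box at 2 places and neither of the other motifs. Variant spellings were not searched, so the absence of a TATA box is not shown.

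SMARCA1 was measured by 2 probes, both annotated to the same transcript of a gene on chromosome X. The deposited signals of the brighter probe, ILMN_2376263, were 66.1, 265 and 89.3 on vector control arrays 1, 2 and 3, and 1178, 999 and 830 on circANRIL arrays 1, 2 and 3. After background correction, quantile normalization and transformation to log2, the levels were 6.41, 8.07 and 6.57 in vector control and 10.25, 10.19 and 9.80 in circANRIL. All 3 circANRIL arrays therefore lay above all vector control arrays, and vector control array 2 lay above the other controls. The mean was 7.02 ± 0.92 (SD, n = 3) in vector control and 10.08 ± 0.25 (SD, n = 3) in circANRIL, a log2 difference of 3.06 (SE 0.31), or 8.36-fold.

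The other SMARCA1 probe, ILMN_2376258, had the same pattern. Its log2 levels were 5.33, 6.48 and 5.49 in vector control and 8.82, 8.50 and 8.44 in circANRIL, again without overlap and with vector control array 2 as the highest control. The log2 difference was 2.82 (SE 0.26), or 7.06-fold. In the authors' normalized values, which were taken as not background-subtracted, it was 1.81, or 3.51-fold. Both probes were detected on all 6 arrays, so that no group was at the background of the array. In bulk RNA, a higher level in every cell and a larger share of cells that express the gene cannot be told apart.

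**Figure D1:**
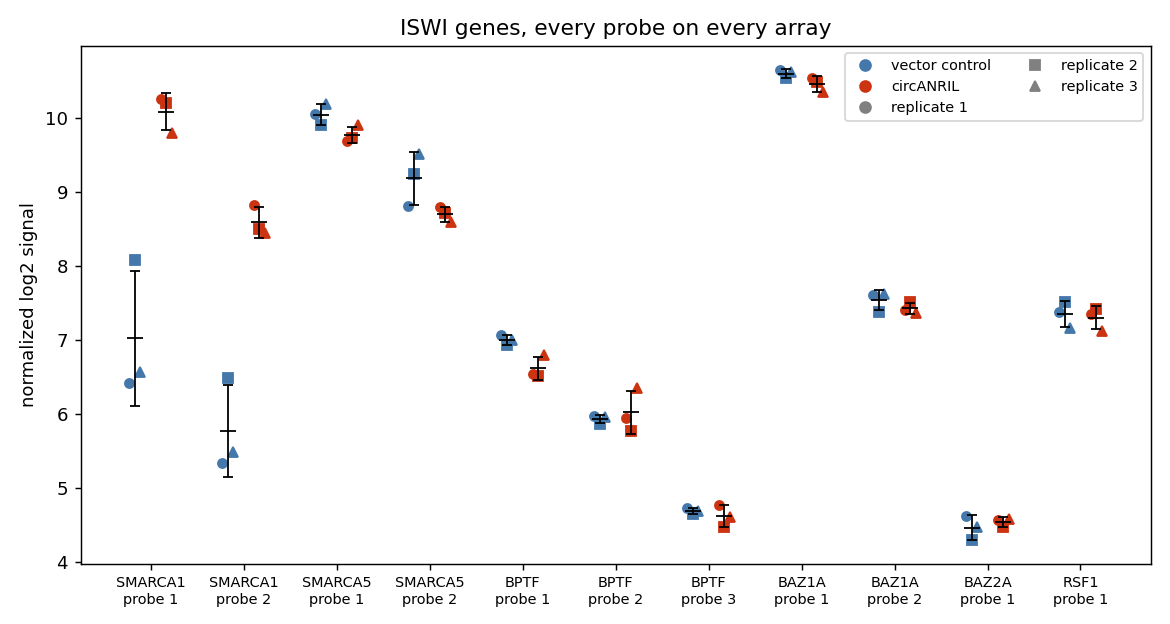
Normalized log2 signal of all 11 probes of the ISWI genes on each of the 6 arrays (symbols, replicates 1 to 3), with the mean and SD of each group of 3 (bars); levels of different probes are not comparable. The SMARCA1 probes separate the groups by 3.06 and 2.82, and the other probes lie within 0.48 of their control mean on average.

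The SDs of the SMARCA1 probes were larger in vector control than in circANRIL, a difference in spread that was not tested. In vector control they rest on array 2, which lay above the other controls. Among the vector control arrays, the SD of the brighter probe was 0.92, and only 0.401% of the 21191 kept probes had a higher one. For the other probe the SD was 0.62, exceeded by 1.93% of probes. The median SD of all kept probes was 0.20 in vector control and 0.18 in circANRIL. In circANRIL the SDs of the SMARCA1 probes, 0.25 and 0.21, were exceeded by 28.5% and 39.3% of probes. Without vector control array 2 the difference of the brighter probe was 3.60.

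SMARCA5, on chromosome 4, was somewhat lower in circANRIL by both of its probes. The levels of the brighter probe, ILMN_2223130, were 10.05, 9.90 and 10.18 in vector control and 9.68, 9.73 and 9.89 in circANRIL. The groups all but touched, at vector control array 2 and circANRIL array 3. The log2 difference was -0.27 (SE 0.14, 95% interval -0.58 to 0.03). The levels of the other probe, ILMN_1713163, were 8.80, 9.23 and 9.51 in vector control and 8.79, 8.71 and 8.59 in circANRIL, a difference of -0.48 (SE 0.18, 95% interval -0.87 to -0.10). Vector control array 1 lay next to the circANRIL arrays for this probe and the other controls lay higher. Neither probe passed the threshold of the fit across all probes. The second passed it without vector control array 1, at -0.67, and with median scaling in place of quantile normalization, at -0.68.

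Taken relative to the vector control mean of each probe, the level of SMARCA1 minus that of SMARCA5 was 3.59, 3.49 and 2.93 on the circANRIL arrays and -0.61, 1.20 and -0.59 on the vector control arrays. The lowest circANRIL array was thus above the highest control. The mean was 3.34 ± 0.36 (SD, n = 3) in circANRIL, with an SD of 1.04 in vector control, and the 4 pairings of SMARCA1 and SMARCA5 probes gave 3.09 to 3.55. These values contain the difference by which SMARCA1 was chosen.

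**Figure D2:**
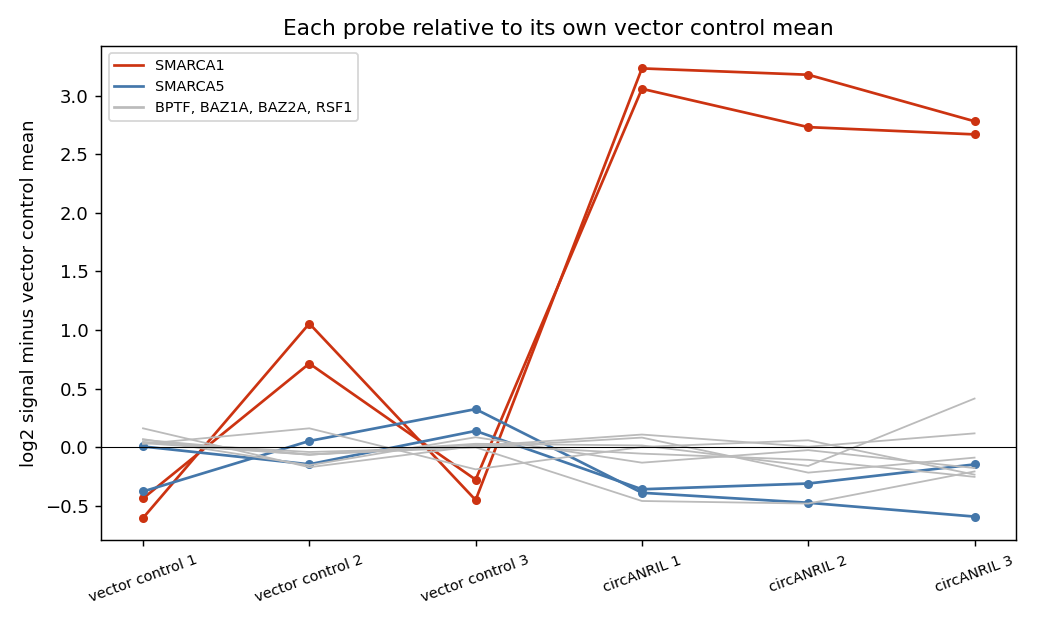
Log2 signal of each probe minus its own vector control mean (y axis) on the 6 arrays (x axis); a line joins the values of 1 probe and has no other meaning. The SMARCA1 probes stand at 2.67 to 3.23 on the circANRIL arrays, and the SMARCA5 probes at -0.15 to -0.59.

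BPTF, the subunit that holds NURF together and reads methylated histone H3 lysine 4, had 3 probes. ILMN_1688381 gave 7.06, 6.93 and 6.995 in vector control and 6.54, 6.52 and 6.79 in circANRIL. This probe was lower on every circANRIL array, by 0.38 on average (SE 0.19; 95% interval of the log2 difference -0.78 to 0.02). ILMN_1712657, annotated to the same transcript, gave overlapping groups and a difference of 0.09 (95% interval -0.34 to 0.52). ILMN_1699179, annotated to another transcript, was near background, with detection on 3 vector control arrays and 1 circANRIL array, and its difference was -0.07 (95% interval -0.40 to 0.25). The BPTF probes thus did not give 1 direction.

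BAZ1A, the ACF1 subunit that joins SMARCA5 in ACF and CHRAC, had levels of 10.64, 10.53 and 10.61 in vector control and 10.54, 10.49 and 10.34 in circANRIL for its brighter probe. The groups overlapped, and the difference was -0.14 (95% interval -0.41 to 0.14). Its other probe differed by -0.11 (95% interval -0.49 to 0.27). RSF1, the histone chaperone subunit of RSF, had levels of 7.38, 7.51 and 7.16 in vector control and 7.35, 7.41 and 7.12 in circANRIL. These groups overlapped too, with a difference of -0.06 (95% interval -0.46 to 0.34). The BAZ2A probe was detected on 1 vector control array and on 0 circANRIL arrays, so no difference is given for the subunit that directs NoRC to ribosomal RNA genes.

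In the fit across all kept probes (limma, Benjamini-Hochberg adjustment, threshold 0.05), 3753 of 21191 probes passed, which is 17.7%. Of all probes 9.27% were higher in circANRIL and 8.44% were lower. Both SMARCA1 probes passed, in the contrast by which the gene was chosen, and 0 of the other 8 kept probes of the set did. At an unadjusted p under 0.05, 1 of these 8 passed by limma and 1 by the methods' t-test, which called 0 after adjustment. The 7 remodeller lists described below gave 31 and 29 of 90 genes at that threshold. The share of all probes at it is not given, and nothing is read from these counts. By sign, 7 of the 8 member probes were lower, beside 60 of the 90 genes of the remodeller lists, but several are probes of the same gene. Of these 7 probes, only ILMN_1713163 of SMARCA5 had an interval that left out 0 (-0.87 to -0.1). The intervals of the other lower probes contained 0. No share of lower signs over all probes is set beside the count of signs, and no joint fall of the partner genes is read from it. The groups did not overlap for 5 of the 10 kept probes, or 3 of the 8 without SMARCA1, beside 35.7% of all kept probes. With median scaling, the higher share of all calls was 32.3% in place of 52.4%, and the median difference of all 12134 genes moved from -0.02 to -0.14.

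Other subunits of ISWI complexes and related proteins were listed to see whether the measured parts of NURF, CHRAC and related complexes moved with SMARCA1. Of 7 measured of 8 listed, 1 rose and 0 fell, and the median log2 difference was 0.10, beside -0.02 for all genes, of which 20.7% passed. RBBP7, the histone-binding subunit of NURF, rose from 10.97, 10.94 and 11.29 in vector control to 11.88, 11.92 and 11.95 in circANRIL. The highest control lay below the lowest circANRIL array, and the log2 difference was 0.85 (SE 0.13, adjusted p = 0.000206, limma). Like SMARCA1, RBBP7 lies on chromosome X. So do ATRX and ERCC6L of the other SNF2-family ATPases listed, which gave 0.10 and -0.30 without a call. The RBBP7 call held without each single array and was lost with the methods' t-test.

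RBBP4, the autosomal paralog of RBBP7 and likewise a NURF subunit, had a difference of -0.40 (SE 0.18, adjusted p = 0.141, limma). Its levels were 9.64, 9.21 and 8.98 in vector control and 8.74, 8.84 and 9.05 in circANRIL, so that the groups overlapped. It passed the threshold as lower with median scaling. The histone-fold subunits of CHRAC, CHRAC1 and POLE3, differed by -0.002 and -0.09. BAZ2B, a bromodomain relative of BAZ2A, differed by 0.12, BACC1, a factor found with BPTF, by 0.27, and LRWD1, an origin-associated protein on the list, by 0.10, and none of these passed.

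**Figure D3:**
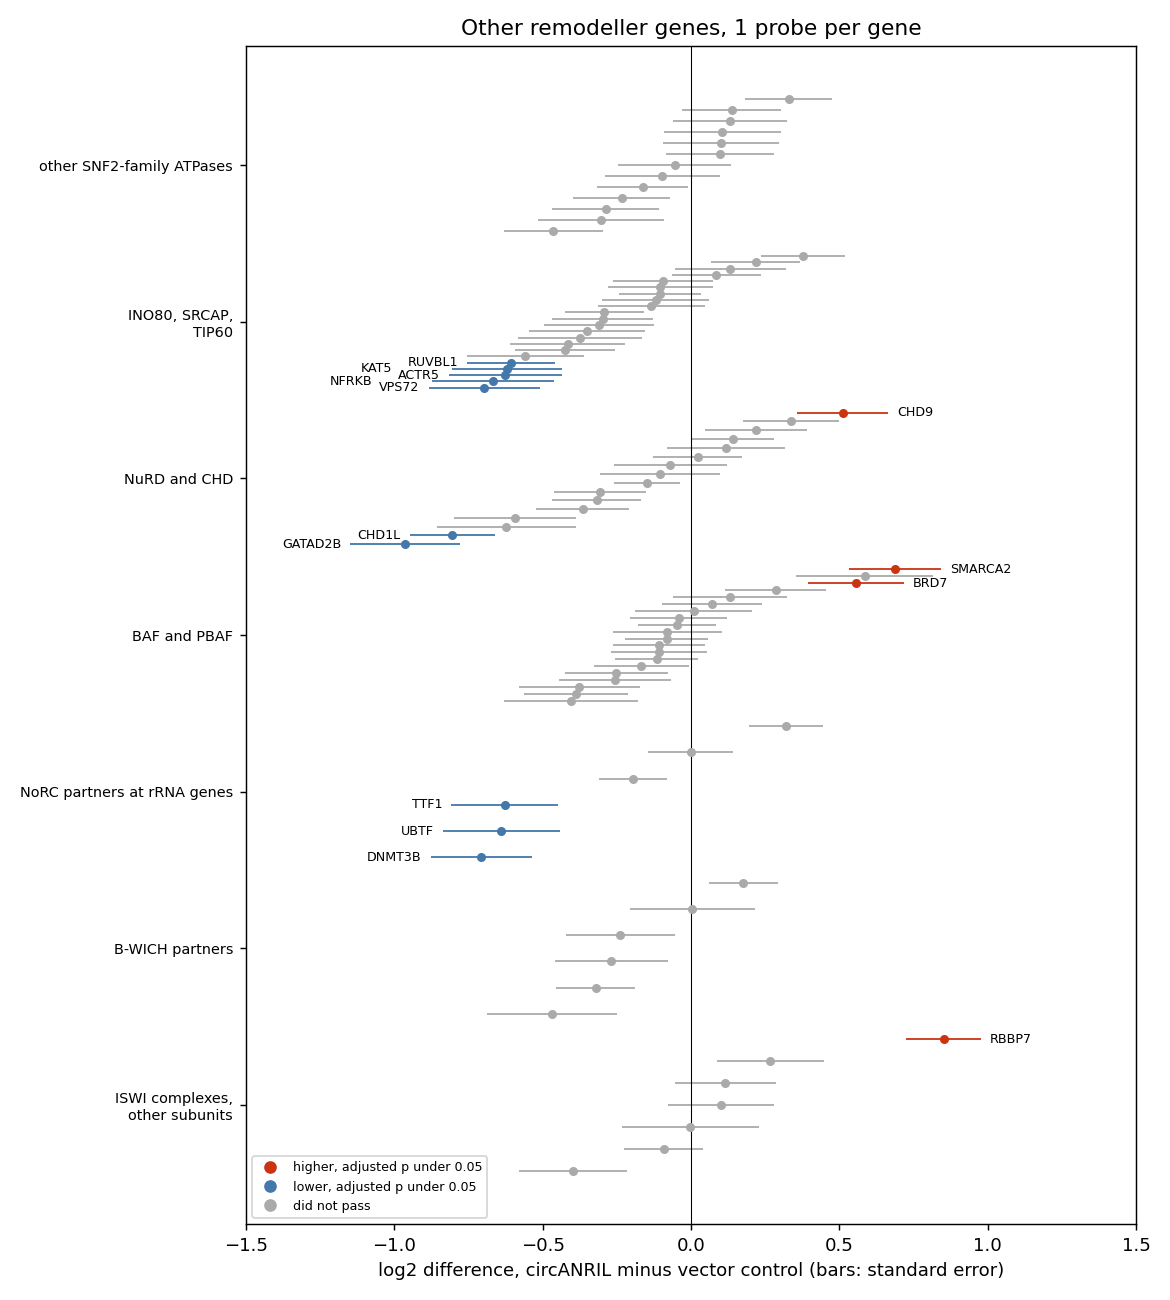
Log2 difference, circANRIL minus vector control, of each measured gene of the 7 remodeller lists (points, 1 probe per gene; bars, SE), with genes past an adjusted p of 0.05 named. Of 90 genes, 4 were higher (red) and 10 lower (blue), and RBBP7 at 0.85 was the largest positive value.

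Around SMARCA5, the lists covered B-WICH, an assembly of BAZ1B and SMARCA5 with nuclear proteins at ribosomal RNA genes, and NoRC, which silences these genes. Of 6 B-WICH partners 0 passed by limma and 0 by the methods' t-test. At an unadjusted p under 0.05, 2 passed by limma, beside 31 of 90 genes over all 7 remodeller lists. The values were -0.47 for MYBBP1A, -0.32 for SF3B1, -0.27 for ERCC6, -0.24 for DDX21, 0.18 for DEK and 0.005 for MYO1C. Single settings moved 2 of them past the threshold, DDX21 at -0.48 without vector control array 2, and SF3B1 with median scaling. Of 6 genes listed around NoRC at ribosomal RNA genes, not all of them NoRC partners, 3 fell and 0 rose. The median was -0.41 beside -0.02 for all genes, of which 1124 of 12134 fell. Of the 3 calls only that of DNMT3B held without each array in turn. DNMT3B, a de novo DNA methyltransferase, fell by 0.71 (SE 0.17, adjusted p = 0.00929), with levels of 8.47, 8.57 and 8.27 in vector control and 7.81, 7.74 and 7.64 in circANRIL. Its other kept probes gave -0.91 and -0.38, of which the former passed. TTF1, the transcription termination factor of RNA polymerase I, fell by 0.63 (adjusted p = 0.0237), and UBTF, an activator of the same polymerase, by 0.64 (adjusted p = 0.0334). The other UBTF probes gave -0.39 and 0.04 without a call. TTF1 and UBTF each lost the call without at least 4 of the 6 arrays in turn, vector control arrays 2 and 3 and circANRIL arrays 2 and 3 among them. DNMT1, HDAC1 and SIN3A gave 0.32, -0.20 and -0.001, and none passed, although HDAC1 did so as lower with median scaling.

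Other remodeller families were counted to place the ISWI genes. Across all 7 lists, 4 of 90 measured genes were higher and 10 lower, which is 15.6% beside 20.7% of all genes, with a median of -0.11. Of 20 BAF and PBAF genes, 2 rose and 0 fell. SMARCA2, the ATPase BRM of BAF and a relative of SMARCA1 by its SNF2 domain, rose by 0.69 (SE 0.16, adjusted p = 0.00585), with 9.08, 8.93 and 8.77 in vector control and 9.73, 9.46 and 9.66 in circANRIL. BRD7, a bromodomain subunit of PBAF, rose by 0.56 (adjusted p = 0.0248), while its other probe gave 0.04. A dimmer probe of SMARCB1, a core BAF subunit, fell by 0.60 (adjusted p = 0.0436), whereas its brightest probe gave no call. Of 16 NuRD and CHD genes, CHD9 rose by 0.51 (adjusted p = 0.0298), and CHD1L, a poly(ADP-ribose)-responsive remodeller, and GATAD2B, a NuRD subunit, fell by 0.80 (adjusted p = 0.00114) and 0.96 (adjusted p = 0.00194). A dimmer probe of HDAC2, the NuRD deacetylase, fell by 1.11 (adjusted p = 0.00224), whereas its brightest probe gave no call. Of 22 INO80, SRCAP and TIP60 genes, 5 fell and 0 rose, and the smallest adjusted p was that of the AAA+ ATPase gene RUVBL1, at -0.61 (adjusted p = 0.0101), whose other probes gave -0.90 and 0.07. VPS72, the histone H2A.Z chaperone, fell by 0.70 (adjusted p = 0.0165), KAT5, the acetyltransferase TIP60, by 0.62 (adjusted p = 0.0284), and ACTR5, an actin-related subunit of INO80, by 0.63 (adjusted p = 0.0334). Of 13 other SNF2-family ATPases 0 passed by limma and 0 by the methods' t-test, which called 484 of 21191 probes. At an unadjusted p under 0.05, 2 of them passed by limma, beside 31 of 90 genes over all 7 lists.

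These counts, like those of all probes, depended on single arrays and on scaling. The 4 higher and 10 lower genes became 2 and 5 without vector control array 3, 2 and 5 without circANRIL array 2, and 2 and 4 without circANRIL array 3. The calls over all probes went from 3753 to 2951, 2138 and 2192 in the same order. Only 6 of the 14 kept their call without each array in turn, RBBP7, SMARCA2, DNMT3B, CHD1L, GATAD2B and RUVBL1. With median scaling 2 were higher and 22 lower. Over all probes 1418 were then higher and 2974 lower, against 1965 and 1788 in the main fit. EN2, a homeobox gene reported as a target of human NURF, differed by -0.29 (adjusted p = 0.474, limma). It was the only measured gene of 3 such targets listed.

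Genes beside SMARCA1 were read to see whether its higher level was shared along the chromosome. Of the 10 nearest measured genes on each side, 11 of 20 rose and 0 fell, with a median log2 difference of 0.56. Among the 11, IGSF1 passed the detection filter only through the circANRIL arrays and so had to differ, and without it 10 of 19 rose, with a median of 0.55. Among the 414 other measured genes of chromosome X, 142 rose (34.3%) and 12 fell, with a median of 0.26, while 11.4% of all genes rose. The nearest measured gene on one side, OCRL, an inositol phosphatase gene, rose from 8.79, 9.31 and 9.24 to 10.08, 9.96 and 9.85 (log2 difference 0.85, adjusted p = 0.00206, limma). The nearest on the other side, PRR32, gave -0.48 without a call. MCTS1, a translation reinitiation factor, rose by 0.94 (adjusted p = 0.000484), RBMX2 by 0.82 (adjusted p = 0.0018) and TMEM255A by 1.05 (adjusted p = 0.00295). IGSF1, an immunoglobulin superfamily membrane protein gene, was detected on 0 vector control arrays and on 3 circANRIL arrays, where it was at least 3.25-fold higher. That bound sets its circANRIL mean against the lowest detected level of each control array and holds for the main normalization only. The log2 difference of IGSF1 was 0.78 in the authors' normalized values and 5.69 with a floored background. CUL4B, C1GALT1C1, THOC2, LAMP2, ZNF280C and STAG2 rose by 0.51 to 0.69. The highest value among the 19 neighbours detected in both groups was 1.05, of TMEM255A, and IGSF1, outside the 19, gave 2.00. SMARCA1 gave 3.06, but it was chosen by this difference, so nothing is read from its standing above them. TMEM255A gave 0.44 in the authors' normalized values and 1.535 with a floored background, beside 2.45 and 3.26 for SMARCA1. The part of the chromosome in the difference of SMARCA1 was not tested.

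**Figure D4:**
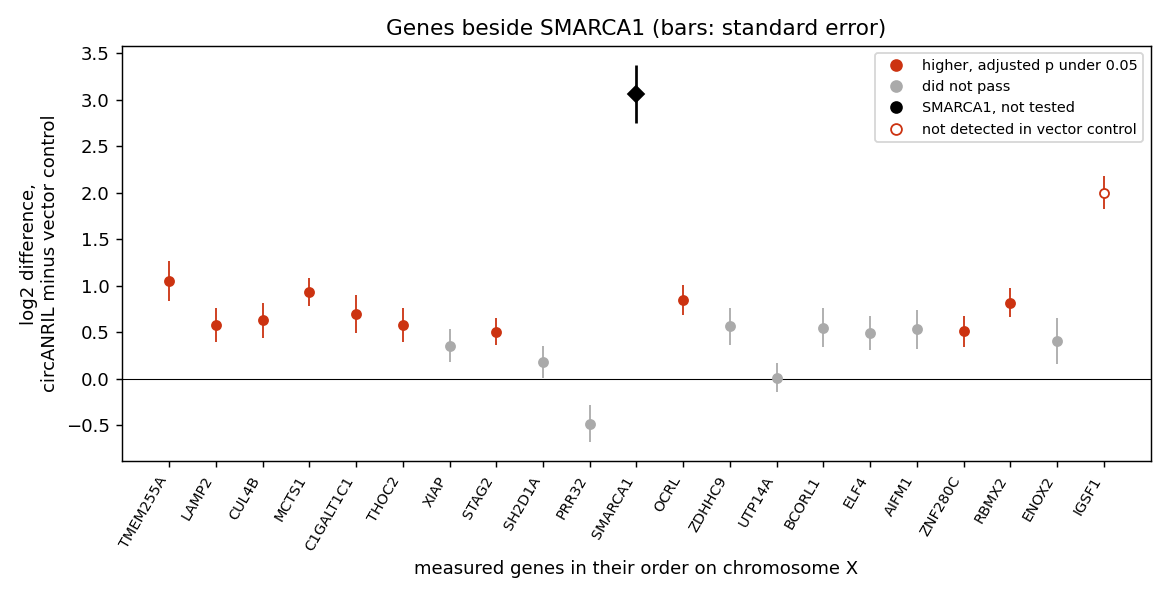
Log2 difference, circANRIL minus vector control (y axis; bars, SE), of SMARCA1 (black) and the 10 nearest measured genes on each side in their order on chromosome X. Of these 20 genes 11 were called higher (red; open for IGSF1, which was not detected in vector control) and 9 did not pass (grey), and SMARCA1 stands at 3.06 between PRR32 at -0.48 and OCRL at 0.85.

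The calls around SMARCA1 were sensitive to single arrays, and of the 10 outside IGSF1 only 4, OCRL, MCTS1, RBMX2 and TMEM255A, held without each array in turn. Of these 10, 4 passed without vector control array 1, 4 without circANRIL array 1, 5 without circANRIL array 2 and 5 without circANRIL array 3. The higher calls over all probes went from 1965 to 1723, 1667, 1230 and 1256 in the same order. With median scaling 4 of the 10 passed and with the methods' t-test 1, beside 1418 and 281 higher calls over all probes. The vector control arrays themselves differed along the chromosome. Vector control array 1 was the lowest control for 17 of the 20 neighbours and for 69.1% of the other chromosome X genes, beside 34.8% of all genes. For SMARCA1, too, array 1 was the lowest control and array 2 the highest, an order seen in 35.3% of the other genes of chromosome X and in 16.2% of all genes.

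To find genes with levels like those of SMARCA1, each of 10364 genes detected on all 6 arrays was taken relative to its own mean, and the root mean square distance to SMARCA1 over the 6 arrays was computed. The 5 nearest were BEX2, a neuronal adaptor gene on chromosome X, at 0.41, KRT8, a simple-epithelium keratin gene, at 0.43, ALDH1A2, a retinoic acid synthesis enzyme gene, at 0.46, INHBE, an inhibin beta subunit gene, at 0.47, and NIBAN1, a stress-induced gene, at 0.48. BEX2 gave 7.60, 8.79 and 8.20 in vector control and 10.69, 10.75 and 10.71 in circANRIL. KRT8 gave 5.17, 6.31 and 5.11 in vector control and 8.21, 8.02 and 7.27 in circANRIL. All 5 were higher on every circANRIL array, by 2.31 to 2.85 on average, and had vector control array 2 as their highest control, as SMARCA1 did, which is what the measure selects for.

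**Figure D5:**
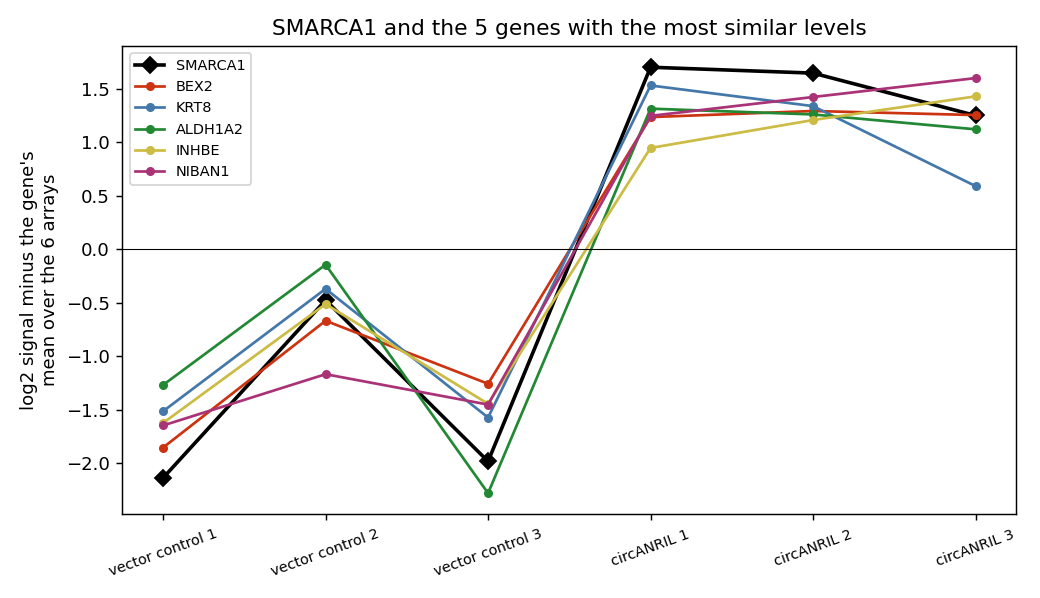
Log2 signal minus the mean of each gene over the 6 arrays (y axis) on each array (x axis) for SMARCA1 (black) and the 5 genes nearest to it; a line joins the values of 1 gene and has no other meaning. Every gene is lowest in vector control and has array 2 as its highest control.

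The arrays were of like quality, with 43.4% to 46.8% of probes detected and correlations of 0.980 to 0.990 within groups and 0.946 to 0.968 between them. Of 8 listed HEK293 markers with a probe, 5 were measured, VIM, NEFL, NEFM, KRT8 and HOXB7, and 3 (PAX2, LHX1 and KRT18) had probes that did not pass the detection filter. Of the 5, 3 passed (60%, beside 20.7% of all genes). The neurofilament gene NEFM fell by 5.36 (adjusted p = 2.99e-09, limma), NEFL rose by 1.08 (adjusted p = 0.00068) and KRT8 rose by 2.31 (adjusted p = 6.34e-05), while VIM gave 0.14 (adjusted p = 0.405) and HOXB7 -0.06 (adjusted p = 0.855). Of 10 markers of leukocytes, endothelial cells, fibroblasts and hepatocytes, only CD14, COL1A1 and ALB passed the filter, at mean log2 levels of 4.87 to 5.63 in either group, and the other 7 did not. Of these 3, COL1A1 was called lower, by 0.52 (adjusted p = 0.048, limma), and CD14 and ALB gave no call (33.3% called, beside 20.7% of all genes). The part of these markers in the level of SMARCA1 was not tested.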

How the data were processed

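The authors preprocessed the arrays in GenomeStudio (version 2011.1). Their deposited table holds 1 background-subtracted linear intensity and 1 detection p-value per probe and array, and 11666 to 12397 of the 47315 intensities of each array are negative. A second deposited table of quantile-normalized intensity values served as an alternative. The paper's methods name background reduction as well. The median of each array was 96.3 in this second table, against 5.84 to 7.01 in the first, so its values were taken as not background-subtracted. The number of arrays limits the precision.

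The neqc function of limma (version 3.58.1 under R 4.3.3) corrected the intensities for background from the detection p-values, added an offset of 16, applied quantile normalization and took log2. The 21191 probes detected (p under 0.05) on 3 or more of the arrays were kept and fitted with lmFit and eBayes with an intensity trend, two-sided, with Benjamini-Hochberg adjustment over all kept probes. The fit was tested on simulated data first. Symbols came from the platform's probe annotation, updated to the GRCh38.p14 gene table (30071 of 30110 probes with 1 symbol matched), and promoter sequences are from RefSeq. Outside the ISWI set, the brightest kept probe on average stood for a gene (12134 genes).

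The members and lists were chosen with earlier results of these data known, and the promoter motifs after the levels were seen. By rule the text names all probes of the set, all measured genes of the first 3 lists, up to 4 genes per direction of every other list with the smallest p past the threshold, the called neighbours and the 5 genes most like SMARCA1. HDAC2, SMARCB1, EN2, PRR32, ATRX, ERCC6L and the cell markers given with values are outside this rule and were chosen after their values were seen. Alternatives were other background corrections, median scaling, the authors' normalized values, other filters, no intensity trend, the methods' t-test, the replicate number as a block and leaving out each array. The methods' t-test is the authors' general test for a pair of normally distributed groups. For these arrays the authors selected transcripts by fold change instead.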

Additional observations from a re-analysis of the deposited data

How the results depend on the processing

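SMARCA1 was higher in circANRIL by 2.45 (authors' normalized values) to 3.60 (without vector control array 2) for its brighter probe, by 1.81 (authors' normalized values) to 3.30 (floored background) for its other probe, and by 2.70 to 3.94 relative to SMARCA5. With median scaling 2 remodeller genes were higher and 22 lower, 5 neighbours of SMARCA1 were higher (IGSF1 included here and below), and 1 member probe other than those of SMARCA1, that of SMARCA5, passed as lower. Without a detection filter 6 remodeller genes were lower. The methods' t-test called 0 remodeller genes higher and 2 lower, and 2 neighbours, beside 484 of all 21191 kept probes. Leaving out 1 array gave 2 to 4 remodeller genes higher and 4 to 11 lower, 5 to 12 neighbours higher, and 0 to 1 member probes lower. Leaving out an array leaves fewer arrays, and no filter tests more probes. For median scaling and the methods' t-test the cause was not tested.

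Values near 0 that did not pass turned in sign. With a floored background these were CHRAC1 (0.018) and MYO1C (-0.0041), and with median scaling BAZ2B (-0.059), LRWD1 (-0.076), DEK (-0.016) and MYO1C (-0.073). Without single arrays CHRAC1 ran from -0.27 to 0.19, MYO1C from -0.12 to 0.20, SIN3A from -0.071 to 0.044, RSF1 from -0.15 to 0.031, POLE3 from -0.18 to 0.022 and the BPTF probe ILMN_1712657 from -0.073 to 0.22.

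The labels do not say whether same-numbered arrays were paired, and the main fit did not pair them. Deviations of same-numbered arrays from their group means correlated at 0.003, 0.08 and -0.13, which cannot exclude a pairing that affects few probes. With the number as a block 3531 of 21191 probes passed, against 3753 without it. Probes near background, such as that of BAZ2A, limit what can be read from them.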
